A study of Homo sapiens with 4 samples.

Results

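The regions described here are the H3K9me3 peaks called on the arms of human chromosome 12, away from its centromere. They were chosen by a rule: a peak on chromosome 12 belonged to the set where its summit lay below 29200000 or above 42600000 (hg38), and lines with the same start and end counted once. The rule kept 331 of 4950 peaks in the 2 lists, made up of 40 of 1165 in the control list and 291 of 3785 in the list from cells labelled OE-KDM4A. The chromosome was selected on its measured peak density in these lists. Its density is therefore given as a description, with no test.

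H3K9me3 was mapped by chromatin immunoprecipitation and sequencing (ChIP-seq) in Ishikawa, an established line of human endometrial cancer cells. The control group carries the label NC and the treatment "none", and the other group carries the treatment OE-KDM4A. All cells were fixed with formaldehyde, and each group had 1 immunoprecipitated and 1 input library. The line, the overexpression of KDM4A and the input libraries could not be checked in a peak list, which holds no expression values. The labels give neither the vector nor the time of expression. No difference between the groups has a replicate check, and each interval is an exact 95% interval of the counting error alone. The depth of the libraries is unknown, so counts of the 2 lists are not on 1 scale.

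Trimethylation of lysine 9 on histone H3 is laid down by SETDB1 and the SUV39H enzymes and is bound by HP1 proteins, which help to keep chromatin compact and genes silent. It is dense at centromeres, at repeats and at clusters of zinc finger genes, and it often covers broad stretches of gene-poor DNA at a low level. KDM4A removes methyl groups from trimethylated and dimethylated lysine 9 and from lysine 36 of the same histone.

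Only 1 place on the chromosome 12 arms was called in both lists. It lies just upstream of ANKLE2, which encodes an ankyrin repeat protein needed to rebuild the nuclear envelope after mitosis. The other protein-coding start with a summit beside it in a list, 4 bp away in NC, is that of LLPH, which encodes a nucleolar protein. The 250 bases upstream of both starts are shown because they are the 2 places where arm peaks of this chromosome fell on a protein-coding promoter. The sequences are from RefSeq for GRCh38.p14, the assembly that hg38 names, and both genes are on the minus strand. Capitals mark the bases under the peak.
ANKLE2, chr12:132761833-132762082, minus strand: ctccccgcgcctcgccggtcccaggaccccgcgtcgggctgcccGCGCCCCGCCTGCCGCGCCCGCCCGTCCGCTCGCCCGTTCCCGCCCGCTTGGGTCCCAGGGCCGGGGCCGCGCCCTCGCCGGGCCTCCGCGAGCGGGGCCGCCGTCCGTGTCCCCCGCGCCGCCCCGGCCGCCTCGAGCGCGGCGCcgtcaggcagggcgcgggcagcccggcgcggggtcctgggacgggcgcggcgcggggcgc
LLPH, chr12:66130751-66131000, minus strand: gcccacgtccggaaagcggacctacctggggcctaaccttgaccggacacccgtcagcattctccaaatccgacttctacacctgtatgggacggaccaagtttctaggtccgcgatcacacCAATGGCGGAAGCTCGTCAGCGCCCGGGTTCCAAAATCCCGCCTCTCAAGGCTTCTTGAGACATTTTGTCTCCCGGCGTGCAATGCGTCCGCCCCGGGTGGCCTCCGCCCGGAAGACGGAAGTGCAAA

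The ANKLE2 sequence is made almost wholly of G and C. Its 250 bases were 87.6% G or C, with 51 CG pairs and a longest unbroken run of G and C of 22 bases. Over the 300 bases from 250 before to 50 after the start, its G and C content was 87.0%, with 61 CG pairs. Of 35116 RefSeq promoters of that length, 22 (0.0626%) had a G and C content at least as high, and their median was 58.7%. The LLPH sequence held 60.4% G or C and 22 CG pairs in 250 bases. Over 300 bases it held 60.3%, and 45.9% of promoters were at least as rich. Among the 1714 promoters of chromosome 12 in the table, 3 overlapped an NC peak and 1 an OE-KDM4A peak. The third in NC was that of LLPH-DT, the divergent transcript that starts next to LLPH. These are descriptions of reference sequence and not of the reads.

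On the whole arms, the OE-KDM4A list held 2.43 peaks per Mb of chromosome 12 and 0.824 per Mb of the other autosome arms, a ratio of 2.95 (2.60 to 3.34). That was the highest density of the 22 autosomes, and chromosome 21 followed with 1.44 per Mb. The arms of chromosomes 3, 4 and 5, which are longer, held 1.22, 0.989 and 1.08 per Mb. In the NC list chromosome 12 held 0.334 peaks per Mb against 0.237 elsewhere, a ratio of 1.41 (0.997 to 1.95), and ranked 9 of 22. Those above it, chromosomes 14, 15, 16, 17, 19, 20, 21 and 22, all have shorter arms, and each other autosome held less. The chromosome stood out in the list that chose it, while the NC interval includes 1.

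The OE-KDM4A peaks did not cover the arms evenly. Counts in bins of 1 Mb were divided into segments of constant density, and a segment was called a dense block where it held at least 2 times the density of the other autosome arms. Such blocks took up 61 of the 122 bins of chromosome 12, beside 5.30% of the bins of all autosome arms. Dense blocks ran from 7 to 29.2 Mb on the short arm and from 42.6 to 80 Mb on the long arm. In 4 of 8 other settings of the search the short-arm block began at 0, so the edge at 7 Mb depends on the setting, while the edge at 80 Mb was found in all 8. Together they measured 59.6 Mb, 49.7% of the arms, and both ended towards the centromere at the limits of the rule and not at a fall in density. The 7 blocks found on the 21 other autosomes added up to 71.8 Mb. The longest of these, on chromosome 3, measured 31.2 Mb with 3.23 peaks per Mb, so long dense stretches also occurred elsewhere.

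From the short-arm end to the long-arm end, the OE-KDM4A density fell into 5 segments, with changes found at 7, 58 and 80 Mb and a break set by the rule between 29.2 and 42.6 Mb. The first 7 Mb held 7 peaks, or 1.00 per Mb (0.402 to 2.06). From 7 to 29.2 Mb there were 91 peaks, or 4.10 per Mb (3.30 to 5.03). From 42.6 to 58 Mb there were 40 peaks, or 2.60 per Mb (1.86 to 3.54). The densest segment was next, from 58 to 80 Mb, with 123 peaks or 5.59 per Mb (4.65 to 6.67). The remaining 53.2 Mb held 30 peaks, or 0.564 per Mb (0.380 to 0.804), below the 0.824 per Mb of the other autosome arms. The same search on the NC list found no step at all, with 0.342 peaks per Mb on the short arm and 0.331 on the long arm. That list held only 40 arm peaks, so a missing step does not show an even density.

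**Figure D1:**
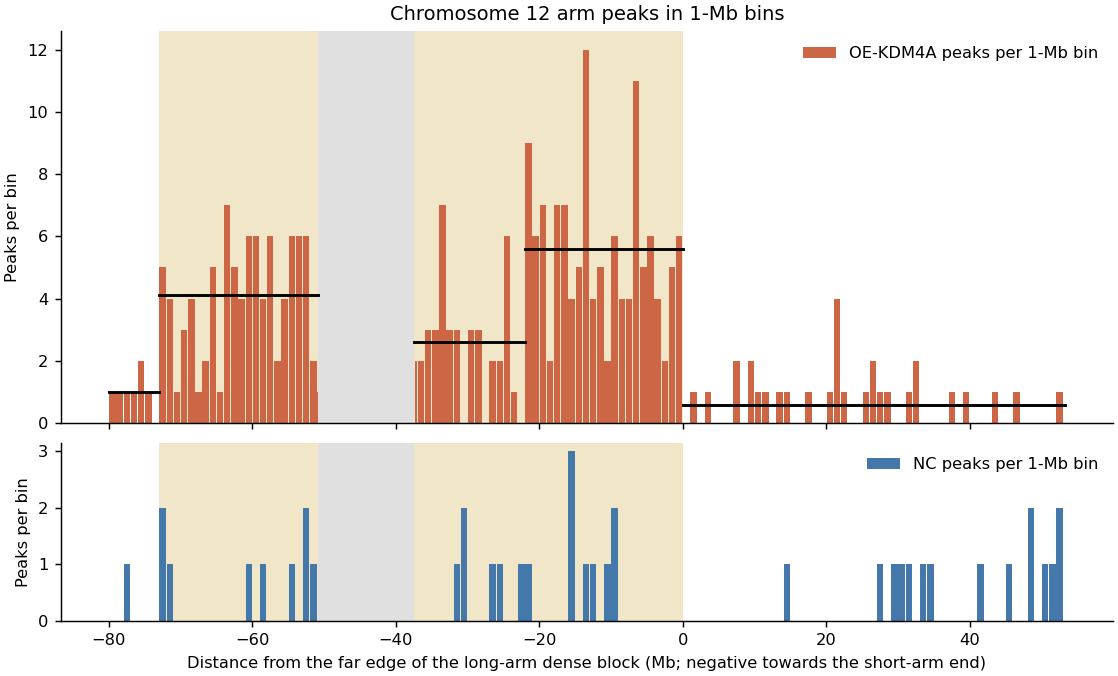
OE-KDM4A (top) and NC (bottom) peaks per 1-Mb bin along the chromosome 12 arms, plotted by distance in Mb from the far edge of the long-arm block. Yellow marks the dense blocks, grey the stretch left out by the rule and black lines the mean per Mb of each segment; OE-KDM4A falls from 5.59 to 0.564 per Mb at distance 0, while NC counts stay at 3 or fewer per bin.

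Bins with at least 4 OE-KDM4A peaks made up 37 of 119 whole bins on chromosome 12 (31.1%), 61 of 2367 on the other autosomes (2.58%) and 3.94% of all autosome bins. The fullest bin, from 66 to 67 Mb, held 12 peaks and the genes LLPH, TMBIM4, IRAK3, HELB and part of GRIP1. GRIP1 held 9 of the 12 in its span. IRAK3, which dampens Toll-like receptor signalling, and HELB, a DNA helicase, held none. The bin from 73 to 74 Mb held 11 peaks and no protein-coding gene, and the one from 58 to 59 Mb held 9 beside LRIG3. Bins with 7 peaks included 16 to 17 Mb, with DERA, SLC15A5, MGST1 and LMO3, and 46 to 47 Mb, with the amino acid transporter genes SLC38A1, SLC38A2 and SLC38A4. In NC the fullest bin was 64 to 65 Mb, which held 3 peaks. They lay within C12orf56, 7.06 kb from C12orf56 and within XPOT, the exporter of transfer RNA. The bin also includes TBK1, a kinase of innate immunity, which held none in its span.

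At the far edge of the long-arm block the segment density fell from 5.59 to 0.564 per Mb. The last OE-KDM4A peak inside lay at chr12:79627183-79627334, within PAWR, which encodes a pro-apoptotic protein. The next lay 1503 kb further on at chr12:81129902-81130083, within ACSS3, a mitochondrial acyl-CoA synthetase gene. The last 1-Mb bin before the edge held 6 peaks, and the 5 bins after it held 2 in all, 1 from 81 to 82 Mb and 1 from 83 to 84 Mb. The NC list had no peak over a much longer stretch there, 23949 kb from a peak in PTPRR at chr12:70763264-70763394 to one 61.5 kb from TMCC3 at chr12:94711959-94712079. NC peaks therefore cannot place an edge at this position.

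At the short-arm edge of 7 Mb, OE-KDM4A peaks lay at chr12:5697092-5697355 within ANO2, a calcium-activated chloride channel gene, and then 1591 kb further on at chr12:7288252-7288375, 15.7 kb from ACSM4. At the step inside the long-arm block, the gap was 1621 kb. It ran from chr12:56396394-56396520, 19.9 kb from the replication fork gene TIMELESS, to chr12:58017285-58017440, 58.2 kb from ATP23. In NC, peaks stood on both sides of that step only 83.8 kb apart, at chr12:57937353-57937498 and chr12:58021031-58021276.

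The limits of the rule cut through peaks of ordinary strength. At the lower limit the last OE-KDM4A peak inside lay at chr12:29105948-29106130, 43.3 kb from FAR2, and the first one left out at chr12:29450870-29451045 within OVCH1. Both had a fold enrichment of 5.25. At the upper limit the nearest peak left out lay 14.1 kb from GXYLT1 with a fold enrichment of 4.20, and the first inside lay 65.0 kb from PRICKLE1 with 3.98. In NC the peaks beside the lower limit had a fold enrichment of 4.39 inside, near CCDC91, and 5.57 outside, within FAR2. Those beside the upper limit had 4.98 outside, near PDZRN4, and 4.19 inside, within SPMIP11. Between the limits lay 20 NC and 74 OE-KDM4A peaks, which are not described here.

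The dense blocks were placed on OE-KDM4A peaks, so the fall across their edges in that list is fixed by construction. It went from 4.26 per Mb inside (254 peaks, 3.75 to 4.82) to 0.614 outside (37 peaks, 0.432 to 0.847), and 87.3% of the peaks lay inside. The NC list was not used for the placing. It held 24 peaks inside, 0.403 per Mb (0.258 to 0.599), and 16 outside, 0.266 per Mb (0.152 to 0.431). The ratio of 1.52 had an interval of 0.773 to 3.05 that includes 1, so no NC difference between inside and outside was detectable with 40 peaks. The NC densities of the 3 segments within the blocks were 0.405, 0.390 and 0.409 per Mb, from 9, 6 and 9 peaks. Their intervals, 0.185 to 0.770, 0.143 to 0.848 and 0.187 to 0.777, are too wide to show or exclude the steps of the OE-KDM4A list. Before 7 Mb NC held 0.143 per Mb, from 1 peak, and beyond 80 Mb 0.282 per Mb, from 15 peaks. For each NC peak there were 10.6 OE-KDM4A peaks inside (6.95 to 16.8), 2.31 outside (1.26 to 4.45) and 3.48 on the other autosome arms (3.17 to 3.83). The OE-KDM4A counts in these ratios are those that placed the blocks, so the contrast follows from the placing and is a description.

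The control background moved with the blocks in NC. This value is the number of control fragments that the peak caller set against the peak at its summit, recovered from the deposited fold enrichment and p-value. Its NC median was 1.53 fragments inside (quartiles 1.28 and 1.70), 1.08 outside (0.976 and 1.26) and 1.09 on the other autosome arms. Of the peaks inside, 22 of 24 lay above 1.09, against 7 of 16 outside. The inside median was 1.42 times the outside one, a ratio given without an interval. Over the whole arms of the 21 other autosomes, 1 median stood higher, that of chromosome 21 with 13 peaks and 1.70. That sets a part of chromosome 12 beside whole arms. By segment the NC medians were 1.28, 1.66 and 1.51 within the blocks and 1.07 beyond 80 Mb, and the single peak before 7 Mb had 1.16. In the chromosome 3 block the NC median was 1.37 over 9 peaks. It was 1.33 over 13 peaks in the block of chromosome 20, 1.18 over 6 on chromosome 22 and 4.47 over 6 on chromosome 21. The blocks of chromosomes 5, 8 and 11 had no NC peak.

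In the OE-KDM4A list the control background could be read less well, because a large share of peaks stood at the lowest value of the list, 0.905 fragments. That share was 47.2% inside (41.0 to 53.6), 40.5% outside (24.8 to 57.9) and 56.6% on the other autosome arms (54.4 to 58.8). The median over all peaks was 0.924 inside, 1.06 outside and 0.905 on the other autosome arms, and 7 of the 21 other autosomes stood above the inside median. Among peaks above the lowest value, the median background was 1.18 inside, 1.56 outside and 1.56 on the other autosome arms. The OE-KDM4A background inside the blocks was thus lower than in the 37 peaks outside. Against the other autosome arms, fewer of the peaks inside stood at the lowest value. What part the control background had in the number of called peaks was not tested.

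**Figure D2:**
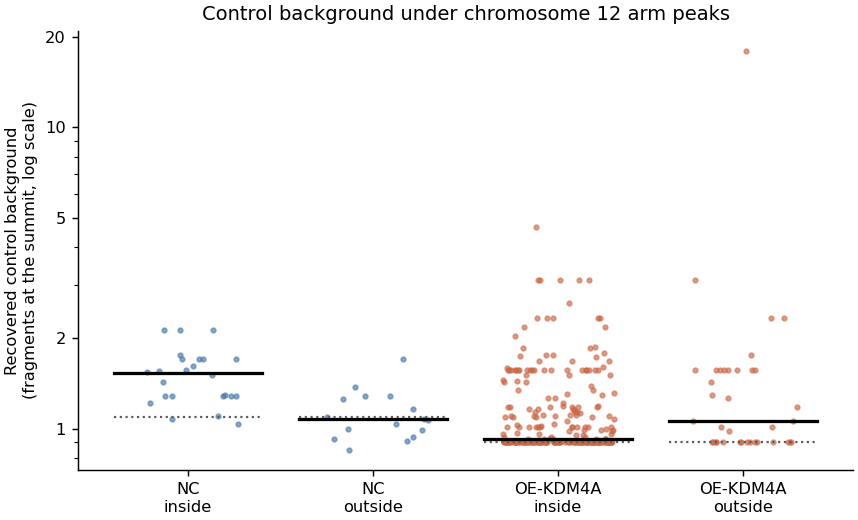
Control background recovered at the summit of each chromosome 12 arm peak (fragments, log scale), by list and by position inside or outside the dense blocks. Black lines are medians (1.53 and 1.08 in NC) and dotted lines the median of the same list on the other autosome arms (1.09 in NC); the OE-KDM4A points pile up at the lowest value, 0.905.

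The blocks held more OE-KDM4A peaks, not taller ones. Their median fold enrichment, ChIP over background on a linear scale, was 4.72 inside, outside and on the other autosome arms. The median −log10 q, the caller's adjusted significance, was 2.70 inside (quartiles 1.85 and 4.43), 2.66 outside and 3.03 on the other autosome arms. A −log10 q of at least 5 was reached by 38 of 254 peaks inside (15%), by 3 of 37 outside (8.11%) and by 19.4% on the other autosome arms. A value of at least 10 was reached by 1 of 254 peaks inside, 2 of 37 outside and 112 of 1971 on the other autosome arms. Peaks of that strength thus made up the smallest share inside, though the first 2 counts are very low. In NC the median fold was 4.24 inside and 4.40 outside, and the median −log10 q was 2.26 and 2.13.

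Most of the OE-KDM4A peaks sit close to the smallest that could be called. The ChIP pileup, the number of stacked fragments at the summit, had a median of 9 inside and 9 outside. It lay between 7 and 10 at 186 of 254 peaks inside (73.2%) and 29 of 37 outside (78.4%), and at 70.0% of the peaks on the other autosome arms. With 7 fragments over the lowest background, a peak had a fold enrichment of 4.20 and a −log10 q of 1.85. Widths were alike too, with medians of 137 bp inside, 136 bp outside and 129 bp on the other autosome arms. A typical OE-KDM4A arm peak of chromosome 12 thus rests on 2 fragments more than this smallest case. In NC the median pileup was 10 inside and 8.50 outside, and no arm peak of chromosome 12 stood at the lowest background of that list.

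**Figure D3:**
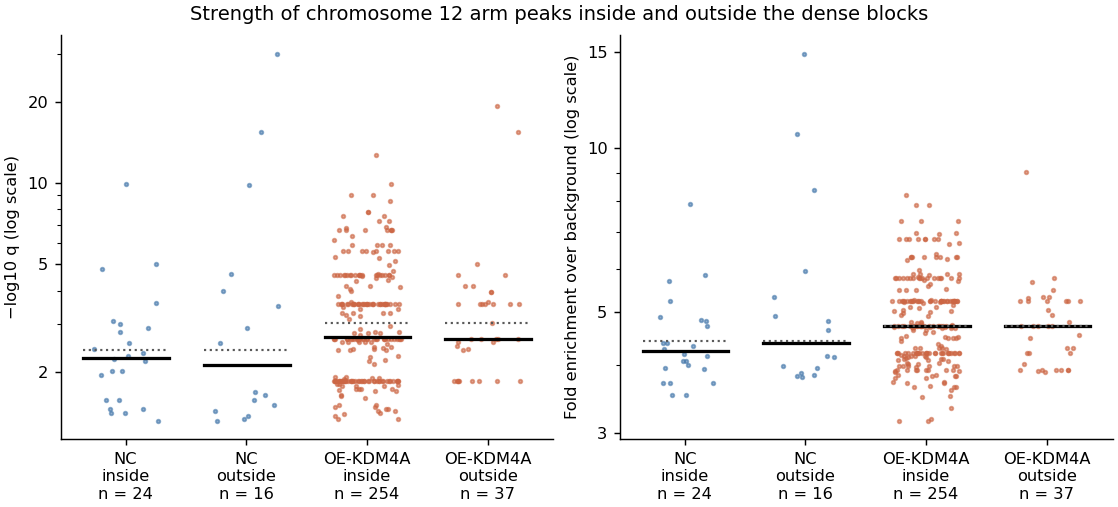
The −log10 q (left) and the fold enrichment (right) of each chromosome 12 arm peak, both on log scales, by list and position. Black lines are medians and dotted lines the medians of the same list on the other autosome arms. The OE-KDM4A medians of fold enrichment coincide at 4.72. Horizontal rows of points are peaks of equal value, many of them whole-number OE-KDM4A pileups over the lowest background.

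The peaks of the 2 lists were almost entirely at different places. A single overlapping pair was found, which is 1 of 40 NC peaks (2.50%, 0.0633 to 13.2) and 1 of 291 OE-KDM4A peaks (0.344%, 0.00870 to 1.90). Inside the blocks there was none, 0 of 24 NC peaks and 0 of 254 OE-KDM4A peaks, which allows shares of up to 14.2% and 1.44% (exact intervals). On the other autosome arms 9.89% of NC peaks (7.56 to 12.7) and 2.74% of OE-KDM4A peaks (2.06 to 3.56) overlapped. The OE-KDM4A share has as its denominator the peak number for which the chromosome was chosen, so it is not read against the other arms. The NC intervals meet. Counting OE-KDM4A peaks within 5 kb of an NC peak gave 0.687% (0.0833 to 2.46), and a −log10 q of at least 5 in both lists gave 2.44% (0.0617 to 12.9).

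The shared peak at ANKLE2 had the same start and end in both lists, chr12:132761893-132762038, and covers the capitals in the sequence above. In NC it had a fold enrichment of 10.6 and a −log10 q of 15.4, from a pileup of 20 over a background of 0.989. In OE-KDM4A it had 9.04 and 15.4, from 24 over 1.76. Its summits lay 78 and 74 bp upstream of the start. It was the second strongest arm peak of each list by −log10 q. The NC peak at LLPH, chr12:66130728-66130878, was far weaker, with a fold enrichment of 4.0 and a −log10 q of 1.95 from 10 fragments over 1.75.

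Peaks of the OE-KDM4A list inside the blocks were spaced more closely than outside, as their number alone requires. The median distance to the next peak of the list was 73.4 kb inside and 748 kb outside. Clusters were few: 40 of 254 peaks lay within 10 kb of another, and joining them left 230 groups. Outside the blocks no peak lay so close to another, and all 37 stayed single. The nearest OE-KDM4A peak to an NC peak lay at a median of 104 kb inside and 988 kb outside.

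Among the bins of the blocks, those with few genes held more OE-KDM4A peaks. The 31 bins with at most 5 protein-coding genes held 163 peaks, 5.26 per bin, and the 28 bins with more genes held 88, 3.14 per bin. Spearman's rho between gene number and peak number was −0.41 and Pearson's r −0.47 over the 59 whole bins. Neighbouring bins share 1 library and are not independent, so these are descriptions. The contrast follows the 2 long-arm segments: 42.6 to 58 Mb has 295 protein-coding genes, 19.2 per Mb, and 58 to 80 Mb has 79, or 3.59 per Mb. The stretch beyond 80 Mb, with the lowest peak density, has 6.52 genes per Mb. Outside the blocks rho was 0.059 over 60 bins.

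Within the blocks, 97 of 254 OE-KDM4A peaks (38.2%, 32.2 to 44.5) had their summit in the span of a protein-coding gene, and such spans make up 46.4% of the bases. The density was 3.51 per Mb inside spans and 4.91 per Mb between them, a ratio of 0.714 (0.549 to 0.926). Outside the blocks 21 of 37 peaks (56.8%) lay in a span, where spans make up 51.7% of the bases. In NC the ratio inside the blocks was 1.62, with an interval of 0.669 to 4.07 that includes 1. Of the OE-KDM4A arm peaks, 2 of 291 (0.687%, 0.0833 to 2.46) had a summit within 1 kb of the start of a protein-coding gene. On the other autosome arms 2.42% did. The interval includes that value and the share of bases so near a start, inside and outside the blocks. The denominator is the peak number for which the chromosome was chosen, so no shortage at starts is read from the share. In NC 3 of 40 peaks had a summit so near a start (7.50%, 1.57 to 20.4), against 10.1% elsewhere. These were the peaks at LLPH and ANKLE2 and 1 that lay 0.541 kb from the start of GALNT9, an enzyme gene of mucin-type glycosylation.

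Of the 988 protein-coding genes on the chromosome 12 arms, 86 (8.70%) had an OE-KDM4A peak in the span or within 5 kb, beside 5.29% of those on all autosome arms. The NC list reached 30 genes (3.04%), beside 2.58%. Inside the blocks 63 of 556 genes (11.3%) had an OE-KDM4A peak and 18 (3.24%) an NC peak. Outside, 23 of 432 (5.32%) had an OE-KDM4A peak, near the background share, and 12 (2.78%) an NC peak. Both lists reached 5 genes, CACNA1C, SLCO1B1, C12orf56, PTPRR and ANKLE2, and only at ANKLE2 did the peaks coincide.

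Which genes had a peak went with gene length. Inside the blocks 5 of 280 genes under 20 kb (1.79%) had an OE-KDM4A peak, as did 16 of 199 genes of 20 to 100 kb (8.04%) and 42 of 77 genes of at least 100 kb (54.5%). A longer gene offers more bases, but the density per Mb of span also differed, at 0.854, 1.88 and 4.63. The value for long genes was near the 4.91 per Mb found between genes, and that for short ones was lower. The genes under 20 kb cover only 2.34 Mb in all, and the classes have no intervals. They also pool segments of unlike density. Of the 556 genes 295 lie from 42.6 to 58 Mb, at 2.60 peaks per Mb, and 79 from 58 to 80 Mb, at 5.59. Gene length and segment were not separated. Outside the blocks the shares were 0 of 136, 7 of 214 (3.27%) and 16 of 82 (19.5%), with 0, 0.388 and 0.896 peaks per Mb of span. The order was the same at a lower level.

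**Figure D4:**
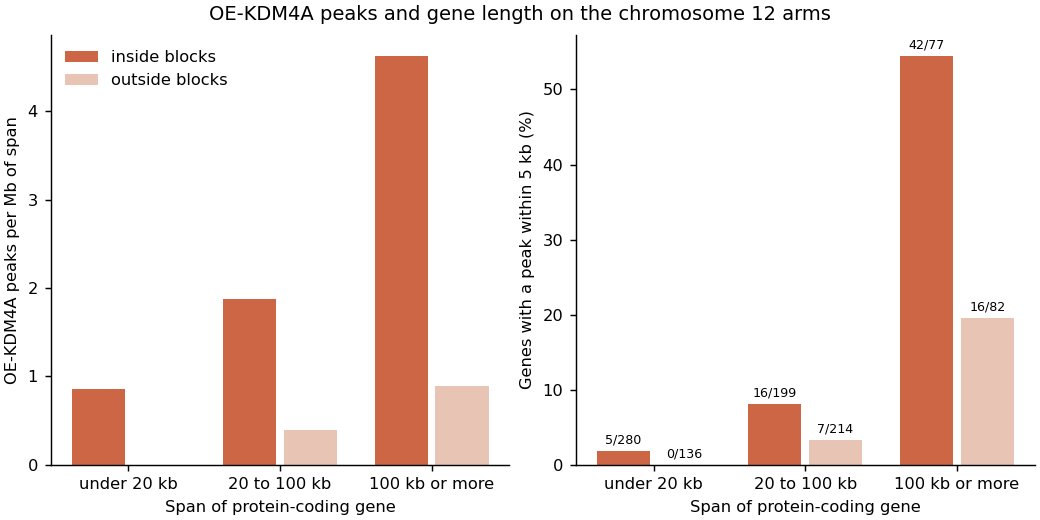
OE-KDM4A peaks on chromosome 12 protein-coding genes of 3 length classes, inside (dark) and outside (light) the dense blocks, as peaks per Mb of gene span (left) and as the percentage of genes with a peak in the span or within 5 kb (right, with counts). Both measures are highest in genes of at least 100 kb, 4.63 per Mb and 42 of 77 inside the blocks.

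The genes with most OE-KDM4A peaks were long genes of the blocks. GRIP1, a scaffold that anchors AMPA receptors at synapses, spans 722 kb and held 9 peaks, where the density of its segment would give 4.04. Its density was 12.5 per Mb (5.70 to 23.7), against 5.59 for the segment. Fold enrichments ran from 3.60 to 7.35, and 3 of the peaks lay within about 1 kb of one another, from chr12:66564963-66565108 to chr12:66565863-66566022. These 3, with the highest fold enrichment among them, also lie in the span of OSBPL9P4, an annotated gene that is not protein-coding. When peaks within 10 kb were joined, 6 groups were left. ITPR2, an inositol trisphosphate receptor that releases calcium from the endoplasmic reticulum, held 5 peaks in 498 kb, all more than 10 kb apart, with fold enrichments of 4.20 to 6.30.

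SYT1, the calcium sensor of synaptic vesicle release, held 5 peaks in 588 kb (8.50 per Mb, 2.76 to 19.8), and 3 of them fell into a single cluster. LMNTD1, a lamin tail domain gene, held 4 in 172 kb (23.2 per Mb, 6.32 to 59.4, against 4.10 for its segment). MSRB3, which encodes a methionine sulfoxide reductase, held 4 in 188 kb (21.3 per Mb, 5.79 to 54.4), in 2 groups. The 3 peaks of DPY19L2, a gene needed to form the sperm head, lay in 1 group in a span of 110 kb. SOX5, a transcription factor gene of cartilage and neurons, spans 1033 kb and held 3, fewer than the 4.23 its segment density would give. None of these 7 genes had an NC peak, beside 5 of the 77 block genes of at least 100 kb (6.49%), so this is not read as a result about them. The 7 genes were taken from the top of a ranking, so their densities are high by choice and are descriptions.

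**Figure D5:**
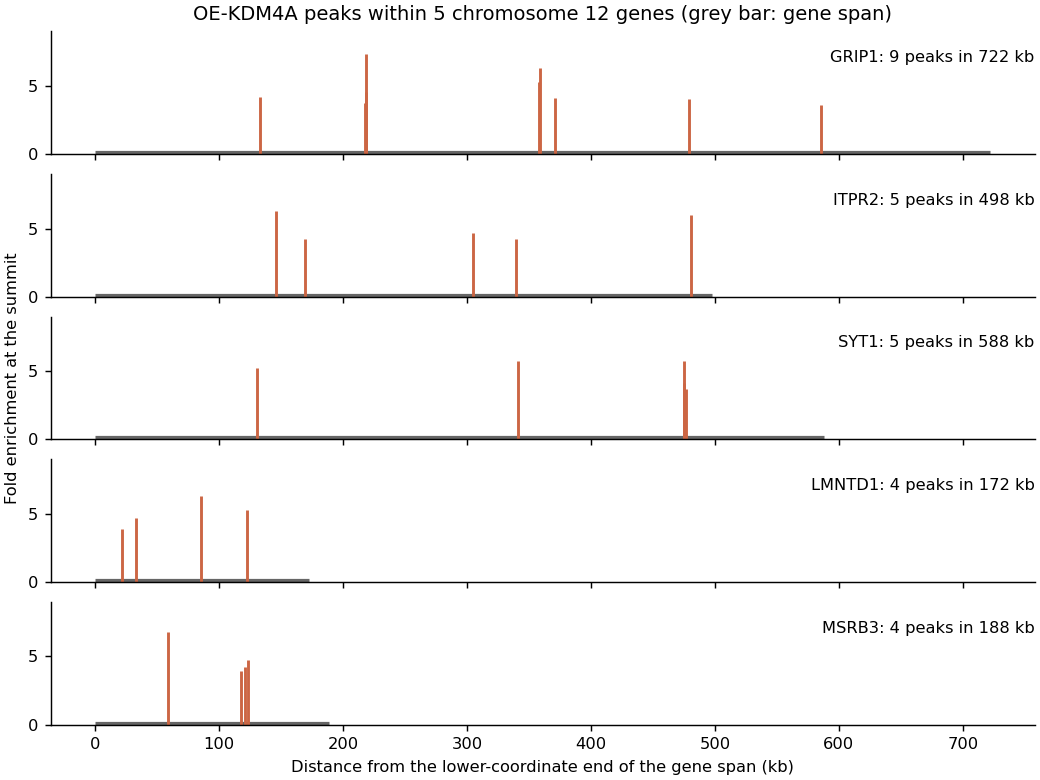
Position (kb from the lower-coordinate end of the gene span) and fold enrichment of the OE-KDM4A peaks in GRIP1, ITPR2, SYT1, LMNTD1 and MSRB3, each drawn as a grey span to the same scale. GRIP1 holds 9 peaks, including a cluster of 3, and the ITPR2 peaks stand apart from one another.

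A further 18 genes held 2 peaks each, 16 of them inside the blocks and 2 outside. The first of those inside in alphabetical order were GLIPR1L2, GRIN2B, which encodes an NMDA receptor subunit, LOC124902894, MGST1, a microsomal glutathione transferase gene, NAV3 and PDE3A, which encodes a cyclic nucleotide phosphodiesterase. The others inside were PPM1H, PRH1, PRH1-TAS2R14, PTPRR, SCN8A, SLC16A7, SLCO1B1, SLCO1B3-SLCO1B7, TAFA2 and TMEM117. Overlapping spans such as PRH1 and PRH1-TAS2R14 can share peaks. Outside the blocks they were ANO4 and the readthrough gene POC1B-DUSP6, whose peaks at chr12:89380655-89380763 and chr12:89478335-89478510 had fold enrichments of 4.54 and 4.48. No gene held 2 NC peaks. Some long genes of the blocks had none in the OE-KDM4A list. The 5 longest were PTPRO, a receptor phosphatase gene (276 kb, 1.13 peaks at its segment's density), ETV6, an ETS repressor gene (246 kb, 1.01 peaks), DIP2B (244 kb), ARID2, a chromatin remodelling subunit gene (178 kb), and R3HDM2 (177 kb). With about 1 peak or less at the segment density, an empty gene is not a finding.

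Gene groups of chromosome 12 were counted from lists written with earlier results known. The 12q14-q15 genes often amplified in tumours, all of which lie inside the blocks and which include CDK4, MDM2 and HMGA2, had an OE-KDM4A peak at 2 of 32 (GRIP1 and PTPRR) and an NC peak at 2 (XPOT and PTPRR). That is 6.25% in each list, beside 11.3% and 3.24% of all protein-coding genes inside the blocks. The cell cycle genes, among them CCND2, CDK2, CDKN1B, FOXM1 and E2F7, had none in either list, 0 of 20, and 8 of them lie inside the blocks. Beside OE-KDM4A shares of 11.3% of all genes inside and 5.32% outside, a count of 0 among 20 genes is not read as a result about them.

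The counts for clusters of tandem gene copies inside the blocks stand beside the same 11.3% and 3.24% of all genes there. The 26 type II keratin genes, the 9 HOXC genes and the 14 bitter taste receptor genes had none in either list. Of 17 olfactory receptor genes 1 had an OE-KDM4A peak (OR8S1) and none an NC peak. Of 27 natural killer and C-type lectin receptor genes 2 had an OE-KDM4A peak (KLRG1 and CLEC2D) and 1 an NC peak (CLEC4A). Of the 6 salivary proline-rich protein genes on the arms 1 had an OE-KDM4A peak (PRH1, with fold enrichments of 6.82 and 5.25). The OR8S1 span measures 0.939 kb, while those of CLEC2D, CLEC4A, KLRG1 and PRH1 measure 29.8, 35.7, 266 and 291 kb. The 7 zinc finger genes of 12q24.33, a class known for H3K9me3 over its 3′ exons, lie outside the blocks and had none. Of all genes outside, 5.32% had an OE-KDM4A peak and 2.78% an NC peak, so 0 of 7 is not read as a result. Peaks at near-identical gene copies are uncertain, since the handling of reads that match several copies is unknown here.

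The list of synaptic and neuronal genes was written with peaks in some of its members known, so its count supports nothing. Of 29 synaptic and neuronal genes on the arms 12 had an OE-KDM4A peak, 10 of them inside the blocks where 12 of the list lie, and 4 had an NC peak (CACNA1C, PTPRR, TMEM132C and RIMBP2). The 10 were GRIN2B, SOX5, NELL2, TAFA2, SRGAP1, GRIP1, PTPRR, TRHDE, NAV3 and SYT1. Their spans run from 283 to 1033 kb, the class in which 54.5% of all genes inside the blocks had a peak. NELL2, which encodes a secreted neural protein, held 1 peak at chr12:44799172-44799292, with a fold enrichment of 6.97, and TRHDE, a peptidase gene, held 1 with 4.72. Of the 4 matched SLCO genes, which encode organic anion transporters, SLCO1C1 and SLCO1B1 had an OE-KDM4A peak, too few genes to set beside the 11.3% of all genes inside the blocks. The readthrough gene SLCO1B3-SLCO1B7, which is not on the list, held 2. SLCO1B1, a hepatic member, also had an NC peak at chr12:21182241-21182388, with a fold enrichment of 3.52, and its OE-KDM4A peaks had 5.25 and 4.48.

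The strongest OE-KDM4A arm peak by −log10 q lay outside the blocks, in CACNA1C, which encodes the pore of an L-type calcium channel. At chr12:2255870-2256081 it had a −log10 q of 19.3 but a fold enrichment of only 4.02, from 75 fragments over a control background of 17.9, the highest background of any arm peak of this chromosome. The peak ranked next was that at ANKLE2. Inside the blocks the strongest were in MON2, a gene of endosome to Golgi traffic (chr12:62492705-62492874, −log10 q 12.7, 27 fragments), in OSBPL8, a lipid transfer gene (chr12:76479916-76480157, 9.92, fold 8.21), and in ANO6, a phospholipid scramblase gene (chr12:45375452-45375619, 9.01, fold 7.87). A peak 258 kb from SYT1 had the same 9.01. The GRIP1 cluster followed with 8.58. The last of the 10 strongest lay 649 kb from RERGL and 15.1 kb from PDE3A, both with 7.84, and 70.7 kb from STK38L, with 7.58.

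Of the 10 strongest NC arm peaks 6 lay outside the blocks. The first was at chr12:114414143-114414298, 5.72 kb from TBX5, a transcription factor gene of heart and forelimb. It had a fold enrichment of 14.9 and a −log10 q of 30.1, from 33 fragments over 1.28, and no OE-KDM4A peak lay there. After ANKLE2 came peaks in C1R, a complement protease gene (chr12:7080717-7080884, fold 7.90), and in TMEM132C (chr12:128705800-128705945, fold 8.37). PTPRR, a receptor phosphatase gene, followed with a fold of 5.85, then a site 4.16 kb from ATP23 with 5.71. The others were in USP30, a mitochondrial deubiquitinase gene (5.94), in ADGRD1, an adhesion receptor gene (5.33), in DNAI7 (5.24) and 61.5 kb from TMCC3 (4.81). The 4 inside the blocks were those at C1R, PTPRR, ATP23 and DNAI7, beside 24 of the 40 NC arm peaks as a whole.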

How the data were processed

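The deposited peak lists of the 2 ChIP libraries were used, 1 for NC and 1 for OE-KDM4A. Trimmomatic, Bowtie 1.1.2, MACS2 2.1.0 and hg38 are named in the submitters' processing notes, and their settings and the read depth are not given in the sources used here. Per peak, the authors deposited a score, a fold enrichment (a linear ratio), a −log10 p and a −log10 q; no −log10 q was under 1.31. Lines with equal start and end were counted once, at the summit with the highest −log10 q.

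Arms leave out the longest gene-free stretch of each chromosome with 5 Mb on either side, and for chromosome 12 the limits of the rule. Bins of 1 Mb were partitioned under a Poisson model with a penalty of 2 log(number of bins) per segment and at least 3 bins. Pileup and control background were recovered from fold and −log10 p with the formulas MACS2 is known to use, with the −log10 p matched within 0.001 in 98.8% of the NC list, 99.6% of the OE-KDM4A list and all 331 arm peaks; backgrounds within 0.1% of the lowest counted as lowest. Gene spans and promoters came from RefSeq tables of GRCh38.p14; promoters of 1 other autosome were not used here, and no genome was used. Densities have exact Poisson and shares exact Clopper-Pearson 95% intervals, and no test between groups was run. Steps were tested on simulated data. Scripts ran in Python 3.11.15 with scipy 1.17.1, pandas 2.3.3, numpy 2.4.6 and, for plots, matplotlib 3.10.9.

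The members, gene lists, comparisons and alternatives were chosen with earlier results of these data known. Named by rule were, on the arms, the 10 strongest peaks per list by −log10 q, the shared peak, peaks at block edges and limits, the 15 protein-coding genes with most OE-KDM4A peaks (ties alphabetical), genes with 2 NC peaks, listed genes with a peak, the 5 longest genes in blocks without one and the 5 densest bins. Gene length classes, bins with at least 4 peaks, values in the blocks of other autosomes, densities by span and G and C content were chosen after seeing the data, as were the few genes named beside a list without a peak and the further genes with 2 OE-KDM4A peaks.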

Additional observations from a re-analysis of the deposited data

How the results depend on the processing

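Of 40 alternatives computed, 33 stayed within the counting interval of the value or, for counts, within 1.5 times it, and 7 moved. Bins of 0.5 Mb, a penalty of 1 log(number of bins) and density limits of 1.5 and 3 times returned the same blocks of 59.6 Mb. Values computed from the blocks could not move under them. Blocks of 66.6 Mb also counted as staying, so the tally is not a measure of stability. With a −log10 q of at least 5, the density of chromosome 12 over the other autosome arms in OE-KDM4A was 2.14 in place of 2.95, the share of OE-KDM4A peaks overlapping NC 2.44% (0.0617 to 12.9) in place of 0.344%, and 18 genes had an OE-KDM4A peak in place of 86. The share of OE-KDM4A arm peaks inside the blocks was 95.1% in place of 87.3% when the blocks were also searched anew, which made them 66.6 Mb long, and 92.7% (38 of 41) in the reported blocks. At the same limit, the NC density inside over outside the reported blocks fell below 1, to 0.674 (0.0563 to 5.88), and was 0.809 at a fold of at least 5. With the OE-KDM4A list shortened to the length of the NC list by −log10 q, the density ratio was 2.11, and the median −log10 q inside the blocks 6.77 in place of 2.70, which the shortening itself raises. In 8 other settings of the block search the far edge stayed at 80 Mb, and in 4 of them the short-arm block began at 0 in place of 7 Mb, for 66.6 Mb in all. The depth of the libraries is unknown, so list lengths cannot be set on 1 scale, and NC counts of 40 leave wide intervals. No paired analysis was possible because each group has 1 ChIP library.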
